A study of Homo sapiens with 6 samples.

Results

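ZIC1, ZIC2, ZIC4 and ZIC5 were followed across 6 bulk RNA-seq libraries of human embryonic stem cells (ESCs) in the naive and the primed state of pluripotency. The genes were chosen by name, which gave 4 of the 48183 gene names (61196 gene identifiers) in the count table, each listed under 1 identifier. The study asked whether activating the kinases AMPK and p38 turns primed ESCs into naive ones. The 4 naive libraries were 1 induced with valproic acid (VPA), 1 induced by doxycycline-switched expression of a constitutively active p38 (CA-p38) and 2 induced with AICAR, an activator of AMPK. The 2 primed libraries were the untreated parental lines, EOS and CA-p38 EOS. All 6 carried the EOS-GFP reporter of the naive state, and the CA-p38 line carried in addition a doxycycline-inducible p38 construct with an mCherry marker. The labels give the line as H1, whereas the methods name H9. By the labels, naive cells were grown in PXGL medium on mouse embryonic fibroblast feeders and sorted for the surface markers CD75 and SUSD2, while primed cells grew on Matrigel in StemFit AK02N and were not sorted for these markers. The study also moved CA-p38 naive cells to PXGL without feeders, and whether the sequenced ones had been moved is not given in the sources used here. By the study, all naive cells had been passaged repeatedly after induction, and the AICAR samples came from 2 successive passages. State, medium, feeders, sorting and passaging since induction cannot be told apart in the naive against primed comparison. VPA, CA-p38 and each primed line have 1 library. The labels do not say whether the AICAR libraries came from separate cultures, nor which of them is the later passage. The p-values therefore measure the spread between these inducers and lines, not between repeats of one of them.

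ZIC genes encode zinc finger transcription factors of the early embryo, related to the GLI factors that act at the end of the Hedgehog pathway. They are known for their roles in the neural plate, the dorsal neural tube and the neural crest. ZIC2 is needed for forebrain patterning and is mutated in some cases of holoprosencephaly, ZIC1 and ZIC4 act in the cerebellum and lie in a region deleted in some cases of Dandy-Walker malformation, and ZIC5 takes part in neural crest formation. In vertebrate genomes they stand mostly as divergently transcribed neighbours such as ZIC1 with ZIC4 and ZIC2 with ZIC5.

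On GRCh38 (GENCODE annotation), ZIC1 (ENSG00000152977) spans chr3:147393422-147510293 on the plus strand and ZIC4 (ENSG00000174963) spans chr3:147386046-147406809 on the minus strand. The start sites of their canonical transcripts lie 2822 bases apart, and exons of their alternative transcripts overlap by 176 bases. ZIC2 (ENSG00000043355) spans chr13:99981784-99986765 on the plus strand and ZIC5 (ENSG00000139800) spans chr13:99962964-99971767 on the minus strand, with start sites 10017 bases apart and no overlapping exon. Since the use of strand in the counting is not given in the sources used here, reads from the overlap of ZIC1 and ZIC4 cannot be assigned to either with certainty. No stretch of 50 bases is shared between the canonical transcripts of any 2 of these genes.

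The 250 bases before each start site, from RefSeq (GRCh38.p14), are shown because each pair is read outwards from the stretch between its start sites. They are chr3:147409115-147409364 on the plus strand for ZIC1, chr3:147406544-147406793 on the minus strand for ZIC4, chr13:99981534-99981783 on the plus strand for ZIC2 and chr13:99971768-99972017 on the minus strand for ZIC5. Each is written 5′ to 3′ in the direction of its gene, and capitals mark the motifs searched on either strand. These were the GC box with the letters GGGCGG and the CCAAT box with the letters CCAAT. The TATA box was searched as TATAAA, and the E-box as CACGTG.
ZIC1: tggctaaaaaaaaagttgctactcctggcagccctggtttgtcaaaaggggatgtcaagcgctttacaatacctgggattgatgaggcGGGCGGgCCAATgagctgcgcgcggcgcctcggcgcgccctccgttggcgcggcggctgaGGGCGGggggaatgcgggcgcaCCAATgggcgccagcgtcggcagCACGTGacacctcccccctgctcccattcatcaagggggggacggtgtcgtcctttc
ZIC4: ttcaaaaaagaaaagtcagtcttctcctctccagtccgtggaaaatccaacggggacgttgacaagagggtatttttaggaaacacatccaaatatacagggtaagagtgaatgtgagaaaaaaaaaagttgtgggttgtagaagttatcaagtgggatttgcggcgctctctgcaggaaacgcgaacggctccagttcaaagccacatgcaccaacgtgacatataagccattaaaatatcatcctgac
ZIC2: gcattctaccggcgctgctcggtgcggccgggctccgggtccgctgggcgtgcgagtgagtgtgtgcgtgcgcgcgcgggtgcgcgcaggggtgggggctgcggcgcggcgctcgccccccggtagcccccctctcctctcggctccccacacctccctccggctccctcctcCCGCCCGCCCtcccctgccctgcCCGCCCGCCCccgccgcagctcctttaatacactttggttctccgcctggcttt
ZIC5: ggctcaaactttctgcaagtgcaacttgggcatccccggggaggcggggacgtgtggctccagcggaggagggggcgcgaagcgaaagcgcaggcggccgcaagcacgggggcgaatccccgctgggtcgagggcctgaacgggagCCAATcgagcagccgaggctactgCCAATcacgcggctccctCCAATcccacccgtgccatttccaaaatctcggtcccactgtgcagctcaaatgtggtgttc
ZIC1 held 2 GC boxes, 2 CCAAT boxes and 1 E-box, ZIC2 held 4 GC boxes, which overlap by a few bases within each of 2 runs, and ZIC5 held 3 CCAAT boxes. ZIC4 held none of these letters. Of 35116 promoter windows of the same length, 42.6% held a GC box, 32.0% a CCAAT box, 10.7% a TATA box and 6.34% an E-box. The GC content was 64.4% for ZIC1, 42.8% for ZIC4, 75.6% for ZIC2 and 64.8% for ZIC5, against a median of 58.0% over all windows. The ratio of observed to expected CpG ran from 0.792 (ZIC4) to 0.895 (ZIC1 and ZIC2), against a median of 0.558. ZIC4 and ZIC5 have 4 and 3 annotated windows, of which the one at the canonical start is shown.

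The libraries held 46823699 to 54277064 counts, and 3 counts, taken as the detection floor, correspond to 0.0553 to 0.0641 CPM (the count divided by the library's total and rescaled to a fixed total) before scaling by the trimmed mean of M values (TMM), which evens out differences in RNA composition. The cells carried the markers of their labels. All 7 naive state markers tested, KLF17 and DPPA5 among them, were higher in naive libraries, and all 5 primed state markers, THY1 and SFRP2 among them, were lower. Of the 3 shared pluripotency genes, POU5F1 averaged 1541 CPM over the naive libraries and 1679 CPM over the primed ones and was not called. NANOG was called higher in naive libraries, at 230 against 91.4 CPM (log2 fold change 1.33). SOX2 was called lower, at 129 against 235 CPM (log2 fold change -0.87). Over the 26497 gene names tested with edgeR's quasi-likelihood test and a Benjamini-Hochberg adjusted p of 0.05, 26% were called higher and 27% lower in naive libraries, and 64.9% did not overlap between the groups. The median log2 fold change over all of them was 0.11.

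The pairs moved in opposite directions, with both members of a pair on the same side. ZIC1 and ZIC4 were higher in naive cells, and ZIC2 and ZIC5 were higher in primed cells. All 4 genes were called and none overlapped between the groups, in a comparison where 64.9% of all genes had no overlap either. In bulk RNA, fewer expressing cells and less RNA per cell cannot be told apart.

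ZIC1, the chromosome 3 member known from dorsal neural tube and cerebellum, had 534 counts in VPA, 589 in CA-p38, 574 in AICAR 1 and 554 in AICAR 2 naive cells, against 2 in EOS and 21 in CA-p38 EOS primed cells. As TMM-scaled CPM, these were 10.2, 11.7, 10.6 and 11.2 in the naive libraries and 0.0404 and 0.429 in the primed libraries, in the same order. The naive libraries stood close together whatever the inducer, with the highest 1.14 times the lowest. The primed libraries differed, EOS being below the floor and CA-p38 EOS above it. Naive libraries averaged 10.9 ± 0.643 CPM (SD, n = 4), primed libraries 0.235 ± 0.275 CPM (SD, n = 2). In edgeR's quasi-likelihood test the log2 fold change, naive over primed, was 5.53 (SE 0.51, Benjamini-Hochberg adjusted p = 1.14e-06), and the pooled counts gave a fold of 46.5 with a 95% Clopper-Pearson interval of 30.9 to 73.6. The size of this change rested on the primed library used, since the log2 fold change was 4.64 without EOS primed and 8.0 without CA-p38 EOS primed. Each of these fits has 1 primed library, which is assumed to vary like the naive ones, so their calls do not show how far primed cells vary. Intervals of pooled folds, here and for the other ZIC genes, cover counting error only and not the spread between libraries.

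ZIC4, the divergent partner of ZIC1, was the least expressed member. It had 18 counts in VPA, 48 in CA-p38, 26 in AICAR 1 and 27 in AICAR 2 naive cells, against 2 in EOS and 1 in CA-p38 EOS primed cells, both below the floor. The CPM values were 0.344, 0.95, 0.479 and 0.544 in naive libraries and 0.0404 and 0.0204 in primed libraries. Every naive library was above both primed ones, and CA-p38 was the highest of them, 2.76 times the VPA library. Naive libraries averaged 0.579 ± 0.261 CPM (SD, n = 4), primed libraries 0.0304 ± 0.0141 CPM (SD, n = 2). The log2 fold change was 4.14 (SE 0.87, adjusted p = 0.00134 by edgeR's quasi-likelihood test). The pooled counts, 119 against 3, gave a fold of 18.9 with an interval as wide as 6.30 to 92.8.

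ZIC2, the chromosome 13 member needed in the forebrain, had 239 counts in VPA, 248 in CA-p38, 334 in AICAR 1 and 253 in AICAR 2 naive cells, against 6185 in EOS and 5131 in CA-p38 EOS primed cells. In CPM these were 4.57, 4.91, 6.15 and 5.09 in naive libraries and 125 and 105 in primed libraries. The gene was thus at a low but clearly detected level in all naive libraries, and well above it in both primed ones. Naive libraries averaged 5.18 ± 0.681 CPM (SD, n = 4), primed libraries 115 ± 14.2 CPM (SD, n = 2). The log2 fold change was -4.47 (SE 0.14, adjusted p = 9.31e-11 by edgeR's quasi-likelihood test). The pooled fold, primed over naive, was 22.2 (95% interval 20.8 to 23.6, counting error only). ZIC2 is among the genes that the study chose to plot for these libraries, so its direction is not independent of that choice.

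ZIC5, the divergent partner of ZIC2, had 113 counts in VPA, 197 in CA-p38, 156 in AICAR 1 and 183 in AICAR 2 naive cells, against 2979 in EOS and 2991 in CA-p38 EOS primed cells. The CPM values were 2.16, 3.90, 2.87 and 3.68 in naive libraries and 60.2 and 61.2 in primed libraries. The primed libraries nearly coincided, while among naive libraries the highest was 1.81 times the lowest. Naive libraries averaged 3.15 ± 0.797 CPM (SD, n = 4), primed libraries 60.7 ± 0.677 CPM (SD, n = 2). The log2 fold change was -4.27 (SE 0.20, adjusted p = 2.13e-09 by edgeR's quasi-likelihood test). The pooled fold, primed over naive, was 19.3 (95% interval 17.8 to 21.0, counting error only).

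**Figure D1:**
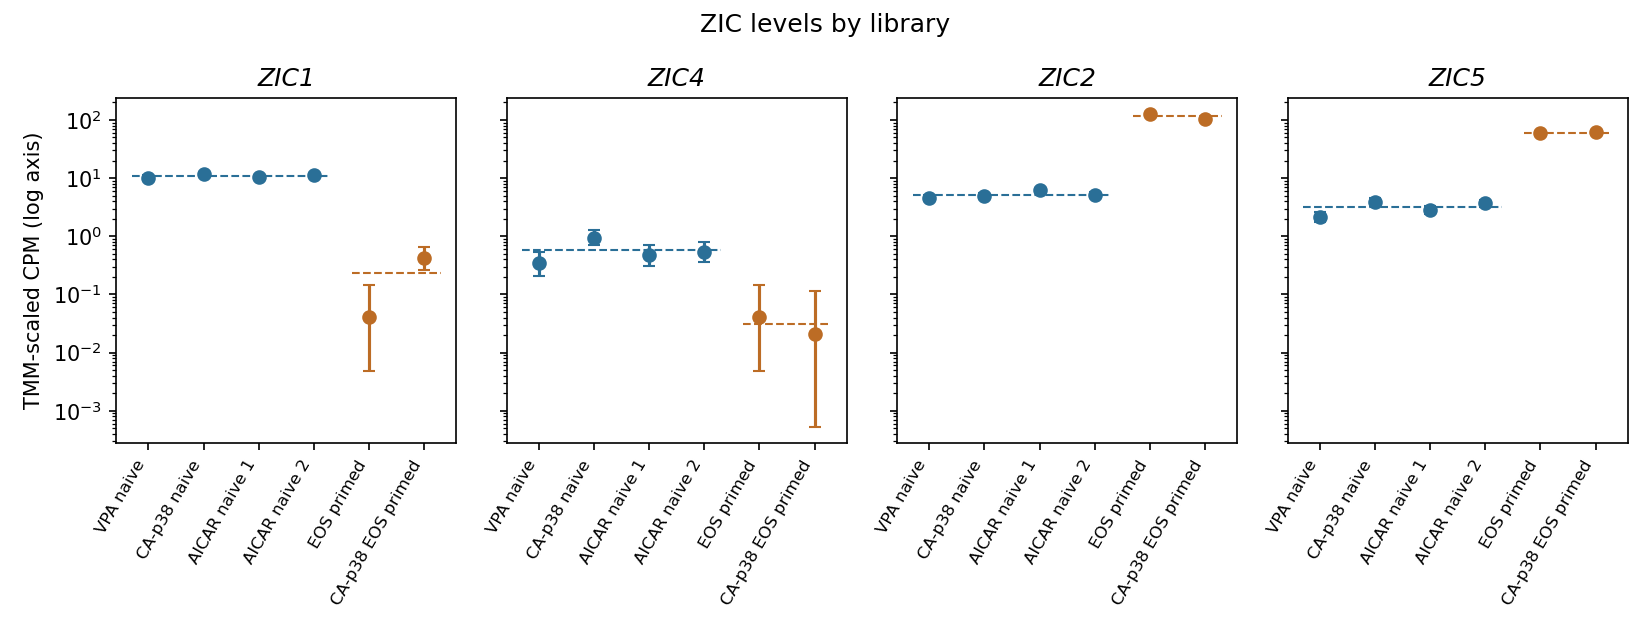
TMM-scaled CPM (log axis) of the 4 ZIC genes in each library, naive in blue and primed in orange, with 95% Poisson intervals of the counts as bars and group means as dashed lines. ZIC1 stays between 10.2 and 11.7 CPM in naive cells and at or below 0.429 CPM in primed cells, whereas ZIC2 and ZIC5 are above 60 CPM only in primed cells.

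Placed among all genes, the changes lay in the outer few percent on either side. Of the 26497 genes tested, 2.18% had a higher log2 fold change than ZIC1 and 3.45% a higher one than ZIC4. On the other side, 2.41% had a lower value than ZIC2 and 2.70% a lower one than ZIC5. By CPM per kb of canonical transcript, ZIC2 was above 91.6% and 89.3% of 19704 protein-coding genes in the EOS and CA-p38 EOS primed libraries, and above 45.7% to 49.2% in naive libraries. ZIC1 was above 48.2% to 49.5% of them in naive cells, close to where ZIC2 stood in the same libraries, and above 11.8% and 20.2% in primed cells.

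Each naive library was also set against the primed line it came from, EOS for VPA and AICAR and CA-p38 EOS for CA-p38. Every ZIC gene in every naive library had the direction of the group comparison, and no counting interval of a fold included 1. ZIC1 was 252-fold higher in VPA (95% interval 69.5 to 2090), 261-fold in AICAR 1 (72.0 to 2163) and 276-fold in AICAR 2 (76.0 to 2285), but 27.2-fold higher in CA-p38 (17.6 to 44.2), whose parent had the 21 counts. The parents themselves differed in ZIC1, CA-p38 EOS being 10.6-fold above EOS with an interval of 2.60 to 93.5. ZIC4 was 8.51-fold higher in VPA (2.04 to 75.6), 11.8-fold in AICAR 1 (2.96 to 103), 13.5-fold in AICAR 2 (3.38 to 117) and 46.5-fold in CA-p38 (7.95 to 1873). These intervals overlap, with 2 counts in EOS and 1 in CA-p38 EOS, so an order of these folds was not detectable at this depth. Among the naive levels themselves, CA-p38 at 0.95 CPM (95% Poisson interval 0.701 to 1.26) lay above VPA at 0.344 CPM (0.204 to 0.544). The intervals of both AICAR libraries overlapped those of CA-p38 and VPA.

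For the chromosome 13 pair the parental comparison was far more precise, since both parents had at least 2979 counts of either gene. ZIC2 was lower by a fold of 27.4 in VPA (95% interval 24.1 to 31.3), 21.4 in CA-p38 (18.8 to 24.4), 20.3 in AICAR 1 (18.2 to 22.8) and 24.5 in AICAR 2 (21.6 to 27.9). ZIC5 was lower by a fold of 27.9 in VPA (23.1 to 34.0), 15.7 in CA-p38 (13.6 to 18.2), 21.0 in AICAR 1 (17.8 to 24.8) and 16.3 in AICAR 2 (14.1 to 19.1). VPA had the largest fold of both genes among these libraries. Between the parents, ZIC2 in CA-p38 EOS was 0.839 times that in EOS (0.809 to 0.871), and ZIC5 was 1.02 times (0.965 to 1.07). The intervals cover counting error only, and with 1 library for VPA and 1 for CA-p38 a difference between inducers has no replicate check.

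Within a pair, the balance of the partners was compared as the ratio of their counts. ZIC1 over ZIC4 was 29.7 in VPA (95% interval 18.6 to 50.4), 12.3 in CA-p38 (9.13 to 16.8), 22.1 in AICAR 1 (14.9 to 34.1) and 20.5 in AICAR 2 (13.9 to 31.4). In primed cells it was 1 in EOS, from 2 counts of each gene (0.0725 to 13.8), and 21 in CA-p38 EOS, from 21 and 1 counts (3.38 to 868). ZIC1 therefore had more counts than ZIC4 in every naive library, and in primed cells the ratio was barely measurable. The mean log2 ratio was 4.31 ± 0.52 (SD, n = 4) in naive and 1.92 ± 2.72 (SD, n = 2) in primed libraries, a difference of 2.39 (two-sided exact permutation p = 0.133, or 0.267 adjusted over the 2 pairs). The difference was 0.47 without EOS primed and 4.31 without CA-p38 EOS primed. With 4 against 2 libraries the smallest p the test can give is 0.0667.

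ZIC2 over ZIC5 was 2.12 in VPA (95% interval 1.68 to 2.67), 1.26 in CA-p38 (1.04 to 1.53), 2.14 in AICAR 1 (1.77 to 2.61) and 1.38 in AICAR 2 (1.14 to 1.68). In primed cells it was 2.08 in EOS (1.99 to 2.17) and 1.72 in CA-p38 EOS (1.64 to 1.80), inside the range of the naive libraries. ZIC2 was thus above ZIC5 throughout, and as groups the primed ratios could not be set apart from the naive ones. Against the own parent, the ratio was lower in CA-p38 and AICAR 2 naive cells, with intervals that do not overlap. For VPA and AICAR 1 the intervals overlap that of EOS. These intervals cover counting error only. The mean log2 ratio was 0.74 ± 0.40 (SD, n = 4) in naive and 0.92 ± 0.19 (SD, n = 2) in primed libraries, a difference of -0.17 (two-sided exact permutation p = 0.6, and 0.6 adjusted over the 2 pairs). The AICAR libraries, which share an inducer but differ in passage, stood apart from each other at 2.14 and 1.38, with intervals that do not overlap.

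**Figure D2:**
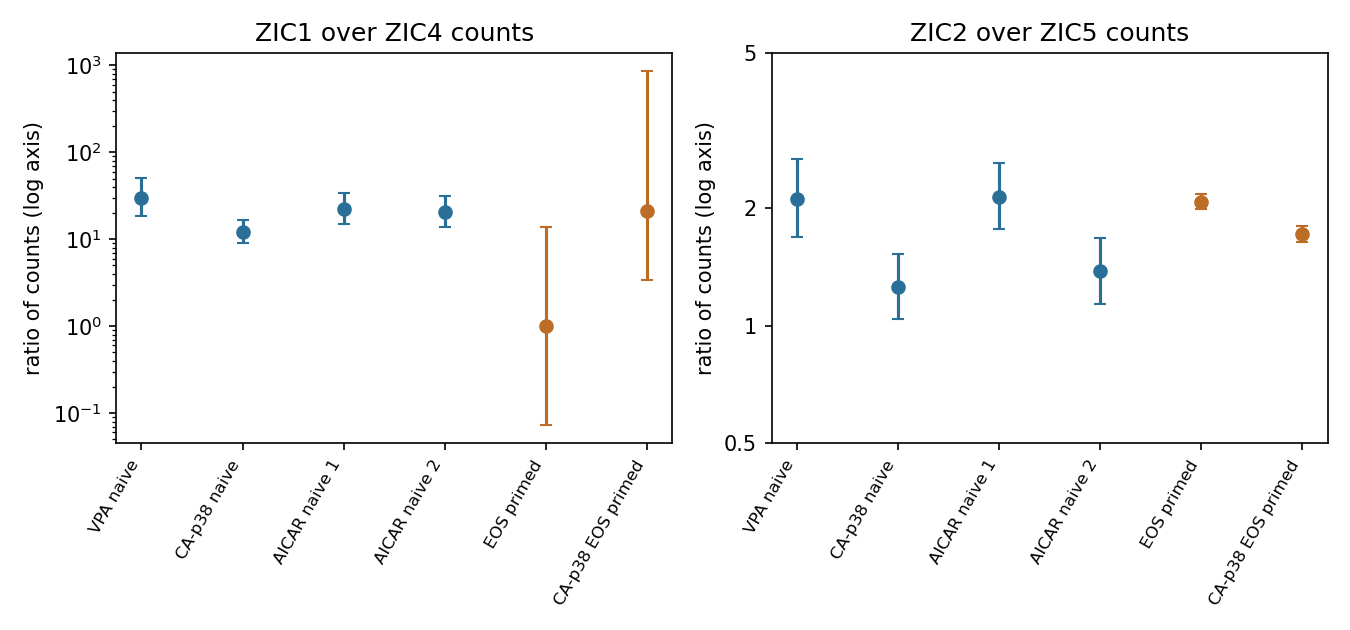
Ratio of counts within each pair, by library (log axes of different range), naive in blue and primed in orange, with 95% Clopper-Pearson intervals as bars. ZIC1 over ZIC4 lies between 12.3 and 29.7 in naive cells and has wide intervals in primed cells, and ZIC2 over ZIC5 lies between 1.26 and 2.14 in all 6 libraries.

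Levels of different genes were compared as CPM per kb of canonical transcript. In naive cells the order was ZIC1 (mean 2.07), ZIC2 (1.75), ZIC5 (0.701) and ZIC4 (0.144). ZIC1 ran from 1.94 to 2.22 CPM per kb and ZIC2 from 1.54 to 2.07, so these neighbours in the order overlap, and in AICAR 1 ZIC2 was the higher one. The other neighbours did not overlap. In primed cells the order was ZIC2 (mean 38.8) and ZIC5 (13.5), whose ranges did not overlap, with ZIC1 at 0.0447 and ZIC4 at 0.00758 and not separable from each other in EOS, where both had 2 counts.

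The make-up of the 4 genes changed with their total. Their summed CPM per kb was 4.05 to 4.98 in naive and 49.1 to 55.6 in primed libraries. ZIC1 made up 47.9% of the sum in VPA, 44.5% in CA-p38, 41.5% in AICAR 1 and 44.2% in AICAR 2 naive cells, against 0.0138% in EOS and 0.166% in CA-p38 EOS primed cells. ZIC2 made up 33.3% to 42.9% in naive cells and 75.9% and 72.1% in primed cells. With their partners, ZIC1 and ZIC4 together held 43.95% to 50.1% of the sum in naive cells and 0.0319% and 0.177% in primed cells.

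**Figure D3:**
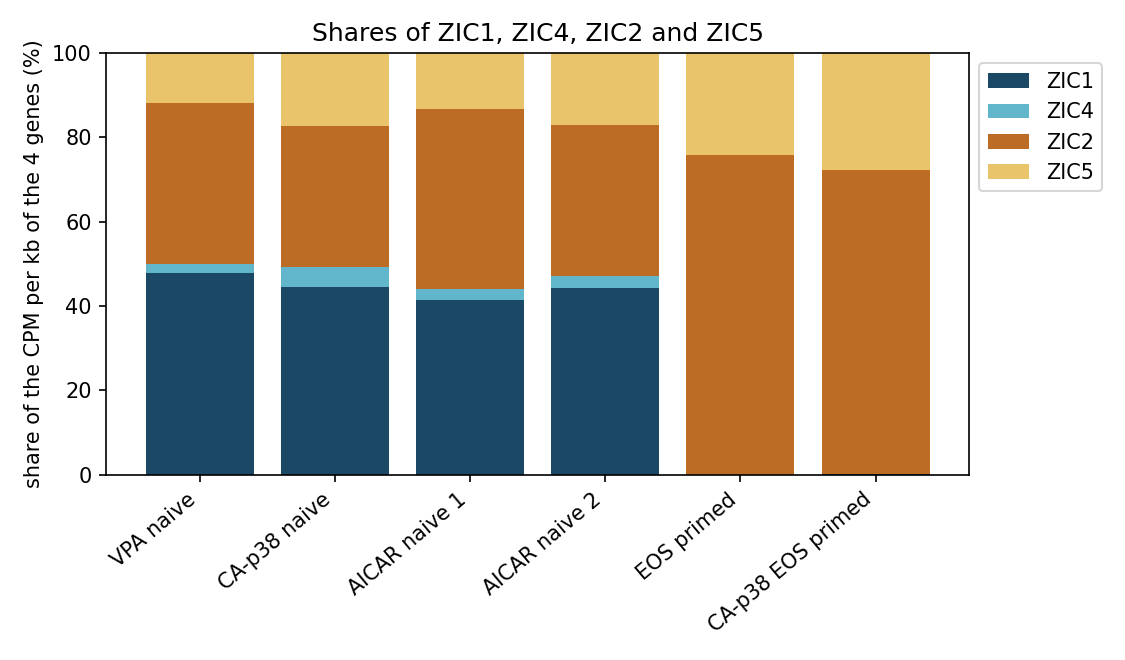
Share of each gene in the summed CPM per kb of ZIC1, ZIC4, ZIC2 and ZIC5 (percent), by library. ZIC1 takes 41.5% to 47.9% of the naive bars and is not visible in the primed bars, which ZIC2 and ZIC5 fill.

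The GLI and GLIS factors, relatives with the same kind of zinc finger domain, were read next. Of 6 listed, 5 could be tested, and 1 was higher, 3 lower and 1 not called, with a median log2 fold change of -4.37. Over all genes tested, 26% were called higher and 27% lower, the background for this and the following lists. GLI2, a main activator at the end of Hedgehog signalling, averaged 1.21 ± 0.675 CPM (SD, n = 4) over naive and 56.0 ± 2.45 CPM (SD, n = 2) over primed libraries, a log2 fold change of -5.53 (SE 0.36, adjusted p = 5.02e-08). GLIS2, a GLI-similar factor, was the one that was higher in naive cells, at 33.8 ± 4.35 against 12.7 ± 2.09 CPM (log2 fold change 1.41, SE 0.17, adjusted p = 1.41e-05). GLI3, which acts mostly as a repressor of Hedgehog targets, was at 0.393 ± 0.102 against 32.6 ± 2.33 CPM (log2 fold change -6.37, SE 0.23, adjusted p = 2.22e-10). GLIS3 was the remaining gene that fell, named after its value was seen, and GLI1 was not called (log2 fold change -0.39, adjusted p = 0.145).

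**Figure D4:**
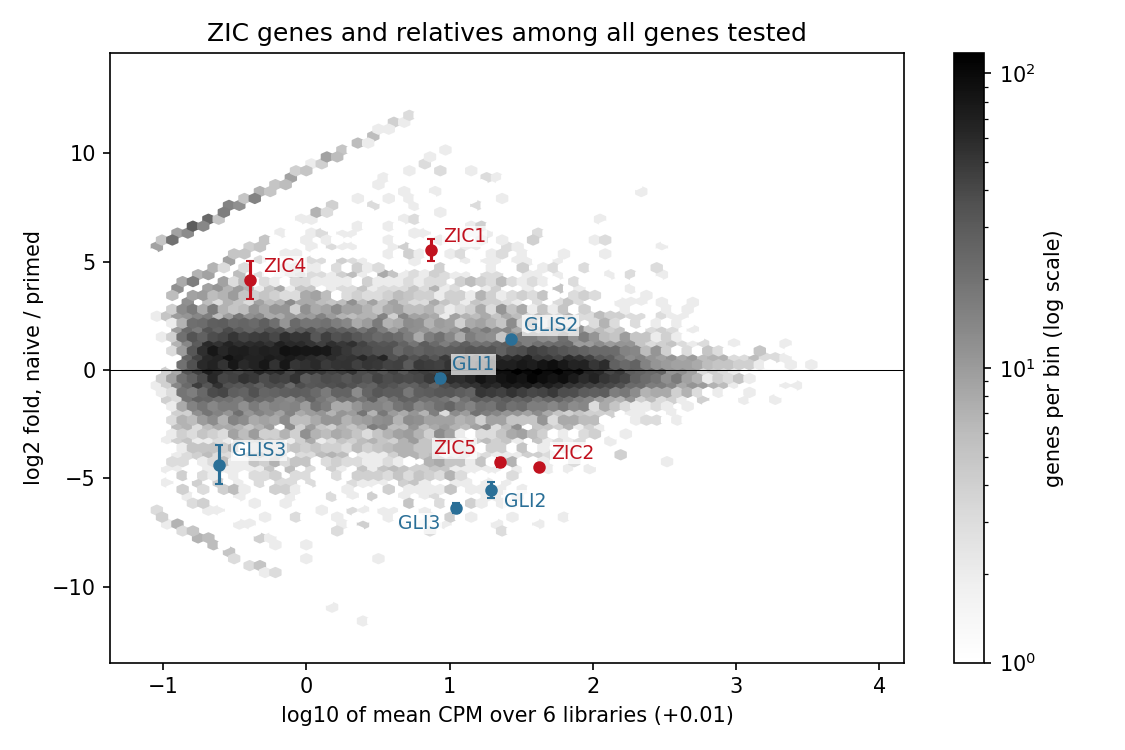
Log2 fold change, naive over primed, against log10 of the mean CPM for all 26497 genes tested (grey bins, log colour scale), with ZIC1, ZIC2, ZIC4 and ZIC5 in red, GLI and GLIS factors in blue and SE as bars. ZIC1 and ZIC4 sit above 4 on the log2 scale and ZIC2 and ZIC5 below -4, and the diagonal bands at the left are genes with 0 counts in a group.

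The Hedgehog pathway, in which GLI factors carry the signal, was read from 15 listed genes that belong to it or are linked to it. Of these, 9 were lower and 6 were not called, where 27% of all genes were called lower and 26% higher. The median log2 fold change was -1.06. SMO, the membrane protein that passes the signal inwards, was at 15.1 CPM in naive and 107 CPM in primed cells (log2 fold change -2.83, SE 0.12, adjusted p = 1.15e-09). KIF7, a kinesin of the primary cilium that acts on GLI proteins, was at 10.8 against 34.5 CPM (log2 fold change -1.68, SE 0.14), and TGIF1, a holoprosencephaly gene like ZIC2, at 82.8 against 109 CPM (log2 fold change -0.39, SE 0.13, adjusted p = 0.0196). The ligand SHH was at 0.594 and 0.448 CPM and was not called (adjusted p = 0.532 by edgeR's quasi-likelihood test).

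Genes of the early neural plate, where ZIC genes are expressed in the embryo, were not uniform. Of 18 read here, 17 could be tested, and 3 were higher, 9 lower and 5 not called, with a median log2 fold change of -0.94. The shares over all genes were 26% higher and 27% lower. NES, an intermediate filament of neural progenitors, was at 89.9 CPM in naive and 467 CPM in primed cells (log2 fold change -2.38, SE 0.10). SOX2, which is shared by pluripotent and neural cells, was at 129 against 235 CPM (log2 fold change -0.87, SE 0.10), and SOX11, a neural progenitor factor, at 2.24 against 93.8 CPM (log2 fold change -5.39, SE 0.23). The 3 higher genes, LHX5, EN1 and EN2, were named after their values were seen, and their naive means ran from 0.726 to 3.61 CPM.

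Of 13 genes of the neural crest and neural plate border, 12 could be tested, and 6 were higher, 3 lower and 3 not called, with a median log2 fold change of 1.13. TWIST1, a mesenchyme and crest factor, was at 19.1 CPM in naive and 0.305 CPM in primed cells (log2 fold change 5.96, SE 0.25). FOXD3, expressed in both premigratory crest and pluripotent cells, was at 3.53 against 18.6 CPM (log2 fold change -2.40, SE 0.22). GBX2, a patterning factor of the hindbrain border, was at 7.37 against 37.1 CPM (log2 fold change -2.33, SE 0.20). This list thus held calls on both sides, in a comparison where 26% of all genes were called higher and 27% lower.

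Markers of other cells were read because ZIC1 and ZIC4 are best known from neural tissue and fibroblasts were used as feeders. Calls over all genes, for comparison, were 26% higher and 27% lower. Of 7 neural cell markers, 6 could be tested, and ELAVL3 was higher, DCX and STMN2 lower and 3 not called. Their summed level was 25.1 to 35.3 CPM in the naive state and 11.2 to 12.4 CPM in the primed state, of which ELAVL3 made up 28.2 and 1.73 CPM on average. SOX1 and PAX6, defining genes of neural progenitors, were not called and stood at 1.14 and 0.757 CPM in naive cells. Of 4 cerebellar and dorsal neural markers, ATOH1, LMX1A and MEIS1 were higher and PAX3 was not called, with a summed level of 1.22 to 4.43 CPM in the naive state and 0.546 to 0.879 CPM in the primed state. The part of such cells in the ZIC1 and ZIC4 levels was not tested.

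None of 8 fibroblast markers was called higher in naive cells, where 26% of all genes were called higher and 27% lower. COL1A1, COL1A2, POSTN and FBN1 were lower and the other 4 were not called, among them COL3A1 (log2 fold change 1.22, adjusted p = 0.0707 by edgeR's quasi-likelihood test). Their summed level was 32.7 to 75.7 CPM in the naive state and 199 to 211 CPM in the primed state. LUM was at 0 in the VPA and AICAR 2 naive libraries, while no marker of these lists was at 0 in all 6 libraries. The table counts reads on human transcripts, and reads from mouse feeder cells were not measured.

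The genes around each pair were compared by identifier, in a fit where 52.1% of 29925 identifiers were called in either direction. Within 500 kb of the midpoint between ZIC1 and ZIC4, the annotation listed 7 other genes, of which 4 had at most 3 counts in every library and 1 could be tested. That gene was the long noncoding RNA AC092957 (ENSG00000243620), the direct neighbour on the ZIC4 side, which was not called (log2 fold change -1.75, SE 1.01, adjusted p = 0.168 by edgeR's quasi-likelihood test). The antisense transcript within ZIC4, ZIC4-AS1, had at most 1 count in any library, and NPM1P28, a pseudogene beyond ZIC1, at most 4. Since AC092957, with at most 13 counts in any library, was the only neighbour tested, whether the change was confined to ZIC1 and ZIC4 cannot be told.

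Around ZIC2 and ZIC5 there were 21 other genes, of which 9 could be tested, and 2 were higher, 3 lower and 4 not called. The share called was close to that of all identifiers. Between the start sites of ZIC5 and ZIC2, at chr13:99973526-99980034 on the minus strand, lies the long noncoding RNA AL355338 (ENSG00000288060). It had 32 counts in EOS and 29 in CA-p38 EOS primed cells, 6 in CA-p38 naive cells and 0 in the other naive libraries, a log2 fold change of -4.31 (SE 1.12, adjusted p = 0.00630 by edgeR's quasi-likelihood test). It therefore had the direction of ZIC2 and ZIC5, at far lower counts. The next gene on the ZIC5 side, AL137139 (ENSG00000286757), was not called (log2 fold change -0.74, SE 0.58, adjusted p = 0.307), and LINC00554 on the ZIC2 side had 1 to 20 counts and was not tested. Further out, CLYBL and PCCA were lower by a log2 fold change of -1.89 and -0.78, and LINC00449 and AL353697 were higher by 1.10 and 2.84, all named after their values were seen.

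**Figure D5:**
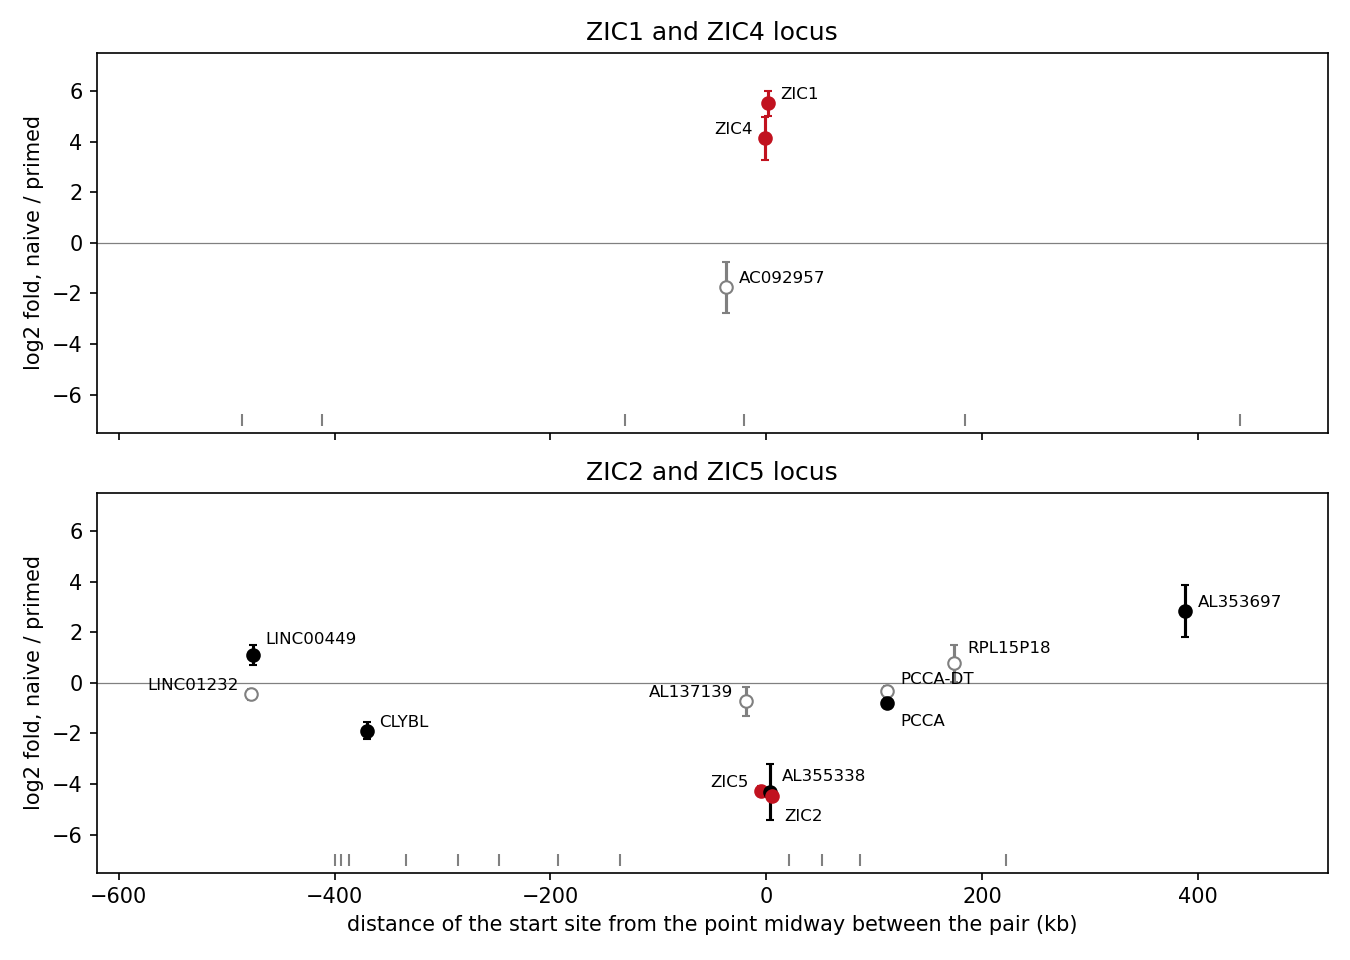
Log2 fold change, naive over primed, of the genes around each pair against the distance of their start site from the midpoint of the pair (kb), with SE as bars. ZIC genes are red, other called genes filled black, genes not called open, and ticks at the bottom are genes that could not be tested, and in both loci the ZIC genes are farther from 0 than any other tested gene except AL355338, which lies with ZIC2 and ZIC5.

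Likeness of pattern was measured as the Euclidean distance between centred log2(CPM + 0.5) values over the 6 libraries, among the 12604 genes that averaged 5 CPM or more. Within the pairs, ZIC2 and ZIC5 were 0.70 apart, and ZIC1 and ZIC4 were 3.55 apart. The added 0.5 compresses the low values of ZIC4, and its part in this distance was not tested. The nearest genes to ZIC2 were LINC02188 (0.21), TGFBI (0.29) and NHSL2 (0.32). Those nearest to ZIC5 were SLC22A17 (0.29), TSPAN12 (0.34) and GNG2 (0.35), and those nearest to ZIC1 were FOXI3 (0.36), USP32P1 (0.41) and ZNF680 (0.41). Those nearest to ZIC4 were DENND4C (0.26), TMEM68 (0.26) and ITSN2 (0.31), whose fitted log2 fold changes of 1.03, 1.0 and 1.03 are smaller than its 4.14.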

How the data were processed

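Polyadenylated RNA of 6 libraries was sequenced. The deposited values are whole-number counts per Ensembl gene identifier: the authors trimmed adapters with cutadapt 1.15 in Trim Galore 0.4.4, mapped the reads with Bowtie2 2.2.5 to cDNA and noncoding RNA of Ensembl GRCh38 release 100, and summed per gene those alignments whose mapping quality reached 1. RSEM and limma are named in the submitters' processing notes but were not applied to these values. In the table, 23 columns of other studies were not used, and 26 spike-in rows were left out.

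Counts of identifiers sharing a name were summed (6932 names had at least 2 identifiers, which can merge separate loci under a clone name). The 4 naive libraries were set against the 2 primed ones in R 4.3.3 with edgeR 4.0.16 (quasi-likelihood test, TMM scaling, filterByExpr with a minimum count of 10, Benjamini-Hochberg adjustment over all genes, threshold 0.05). SE is the log2 fold change divided by the square root of F. Fold intervals are 95% Clopper-Pearson. Pair ratios were compared by exact permutation of the 15 arrangements of libraries. Positions came from GENCODE 44. TMM factors ran from 0.936 to 1.06. Intervals and the floor of 3 counts cover counting error only. Scripts were tested on simulated data. Alternatives were DESeq2 1.42.0, voom in limma 3.58.1, other scalings, filters and prior counts, identifiers kept apart, the parental line as a block, the sum of the AICAR libraries and the omission of each library. Python 3.11.15 was used for the remaining steps.

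Named genes were the members, the 3 called genes of highest mean CPM in each list, direct neighbours, and the 3 nearest genes by likeness. Members and lists were chosen with earlier results of these data known. Some genes are not reported here, and the lists were counted without them.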

Additional observations from a re-analysis of the deposited data

How the results depend on the processing

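All 4 ZIC genes were called with the same direction under every alternative in which they could be fitted, although leaving out a primed library leaves 1, which is then assumed to vary like the naive ones. The number called fell from 4 to 2 under a filter of 10 counts or more in every library, since ZIC1 and ZIC4 could not be fitted there. Over the alternatives the log2 fold change of ZIC1 ran from 4.64 to 8.0 (highest adjusted p 1.44e-05, limma-voom), that of ZIC4 from 3.77 to 4.65 (0.0198, limma-voom), that of ZIC2 from -4.58 to -4.35 and that of ZIC5 from -4.40 to -4.14. The difference in the log2 ratio of ZIC1 to ZIC4 ran from 0.47 to 4.31 when each library was left out in turn. The count of genes called over the whole table ran from 11311 to 15585, against 14058 in the comparison as reported. Scaling by library totals moved the median log2 fold change of the whole table from 0.11 to 0.20 and changed no call of a ZIC gene. With the parental line as a block, all 4 genes were called. The parental line is the only match between naive and primed libraries in the labels, which number only the AICAR libraries. Depth limits ZIC4 and, in primed cells, ZIC1. The counts below the floor are those of ZIC4 in both primed libraries and of ZIC1 in EOS primed cells.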
